A study of Homo sapiens with 33 samples.

Results

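This report describes 9 genes of antigen presentation by MHC class II, read by name from a matrix of 58302 genes in pleural mesothelioma cell lines treated with palbociclib. They are the regulator CIITA, the chain genes HLA-DRA, HLA-DRB1, HLA-DPA1, HLA-DPB1 and HLA-DQA1, the invariant chain gene CD74, and HLA-DMA and HLA-DMB, which encode the peptide exchange factor. All 9 had reads in at least 1 library, but only 5 of them reached 100 CP20M in any library and were tested. CP20M is the deposited unit, the reads of a gene per 20000000 counted reads, rounded up to a whole number.

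MHC class II molecules present peptides taken up from outside the cell to CD4+ T lymphocytes. They are pairs of an alpha and a beta chain. CD74 holds the groove of a new pair closed and guides it to the endosome, where cathepsins trim CD74 and HLA-DM helps the remaining fragment leave. Professional antigen-presenting cells make these molecules at all times, while most other cells make them after interferon gamma, which acts in part through IRF1 to switch on CIITA. CIITA binds no DNA itself and acts on the RFX, CREB and NF-Y factors assembled on the X and Y boxes before the class II start sites.

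The 33 RNA-seq libraries came from 6 established cell lines cultured in RPMI-1640 with 10% serum. H2052, H2452, H28 and MSTO-211H are sensitive to palbociclib, an inhibitor of CDK4 and CDK6. MPP89, which carries a mutated RB1, and MeT-5A, mesothelial cells immortalized by SV40 and deficient in pRb, are resistant. Treatment lasted 9 to 10 days with palbociclib at 1 µM or with DMSO at 0.1% as control, and washout cells were kept without drug for a further 48 h. There were 3 DMSO, 3 palbociclib and 1 washout libraries for each of H2452, H28 and MSTO-211H. H2052 had 2, 2 and 1. MPP89 had 2 DMSO and 2 palbociclib libraries. MeT-5A had 1 of each and 1 untreated library. Each line is 1 cell line, so a difference between lines is a difference between these lines only, and no library received interferon gamma.

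Every column summed to between 20007662 and 20021400 CP20M. The whole numbers that never occur gave a depth for 23 libraries, from 12800000 to 19800000 counted reads with a median of 16400000, and the other 10 skipped no number and had at least 20000000. A single read was therefore worth at most 1.57 CP20M, and a level of 3 reads, the upper limit that a count of 0 allows, was at most 4.7 CP20M, for counting error only. All 9 mesothelial markers looked at (MSLN, CALB2, WT1, UPK3B, LRRN4, PDPN, KRT19, KRT8 and KRT18) were tested genes, and their summed level ran from 11300 to 140628 CP20M over the libraries. KRT8 and KRT18 were never below 1497 CP20M, while PDPN was at 0 in 10 libraries and CALB2 in 6. Of 10 leukocyte markers only CD14 and ITGAX were tested, CD3E and FCER1A were at 0 in every library, PTPRC reached at most 42 CP20M, and the summed level of the 10 ran from 57 to 1490 CP20M. In bulk libraries, fewer cells that express a gene and less RNA per cell cannot be told apart.

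The sequences before the start sites are given for 6 members to show which of the motifs tied to CIITA were matched letter for letter. RefSeq promoters (GRCh38.p14) matched 7 of the 9 members with 8 start sites, all but HLA-DRA and CIITA. The 140 bases before the start site were searched on both strands for the core of the X box, GNAACNNNT, a short site of the cyclic AMP response element (CRE), CGTCA, and the Y box, CCAAT. Capitals mark matches to the X box core and to the Y box, which reads ATTGG on the opposite strand, and the matches do not overlap.
HLA-DRB1 (chr6:32589849-32589988, minus strand): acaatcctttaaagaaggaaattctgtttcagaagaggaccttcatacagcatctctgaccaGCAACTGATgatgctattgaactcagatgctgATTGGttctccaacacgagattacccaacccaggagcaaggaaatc
HLA-DMB (chr6:32941029-32941168, minus strand): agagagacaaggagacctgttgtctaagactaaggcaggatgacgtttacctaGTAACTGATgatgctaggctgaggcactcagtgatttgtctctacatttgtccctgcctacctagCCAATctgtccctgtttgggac
CD74 (chr5:150412911-150413050, minus strand): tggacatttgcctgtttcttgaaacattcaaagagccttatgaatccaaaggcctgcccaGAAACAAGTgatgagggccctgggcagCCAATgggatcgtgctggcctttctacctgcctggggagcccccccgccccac
HLA-DPB1 (chr6:33075850-33075989, plus strand): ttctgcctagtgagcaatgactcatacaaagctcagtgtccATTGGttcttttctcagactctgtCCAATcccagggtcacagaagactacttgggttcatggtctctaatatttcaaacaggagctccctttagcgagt
HLA-DMA (chr6:32953098-32953237, minus strand): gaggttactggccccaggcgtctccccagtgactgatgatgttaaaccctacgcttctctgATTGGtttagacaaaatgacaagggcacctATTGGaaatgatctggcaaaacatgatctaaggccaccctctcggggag
HLA-DPA1 (chr6:33073650-33073789, minus strand): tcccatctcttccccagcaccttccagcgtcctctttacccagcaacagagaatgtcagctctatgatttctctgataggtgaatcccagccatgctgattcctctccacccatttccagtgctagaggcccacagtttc
An X box core was matched in 3 of the 7 genes. It lay in HLA-DRB1 from base -78 to -70, in HLA-DMB from -87 to -79 and in CD74 from -80 to -72, counted from the start site. The Y box was matched in 6 of the 7 genes, among them HLA-DPB1 and HLA-DMA with 2 matches each, and the 3 genes with an X box core also held a Y box. The CRE site was matched in HLA-DMB and before the other start site of HLA-DPA1. The HLA-DPA1 window given here, before start site 2, had no match to any of the 3 patterns. Of 35116 promoter windows of this length, 15.1% held the X box core, 14.7% the CRE site, 22.6% the Y box and 3.62% both X and Y. These are matches to letters and not measured binding. Only exact letters were searched, so a window without a match may still hold a variant of the box. The HLA-DMA window reads gtgactgat, which departs from GNAACNNNT at the third letter only.

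**Figure D1:**
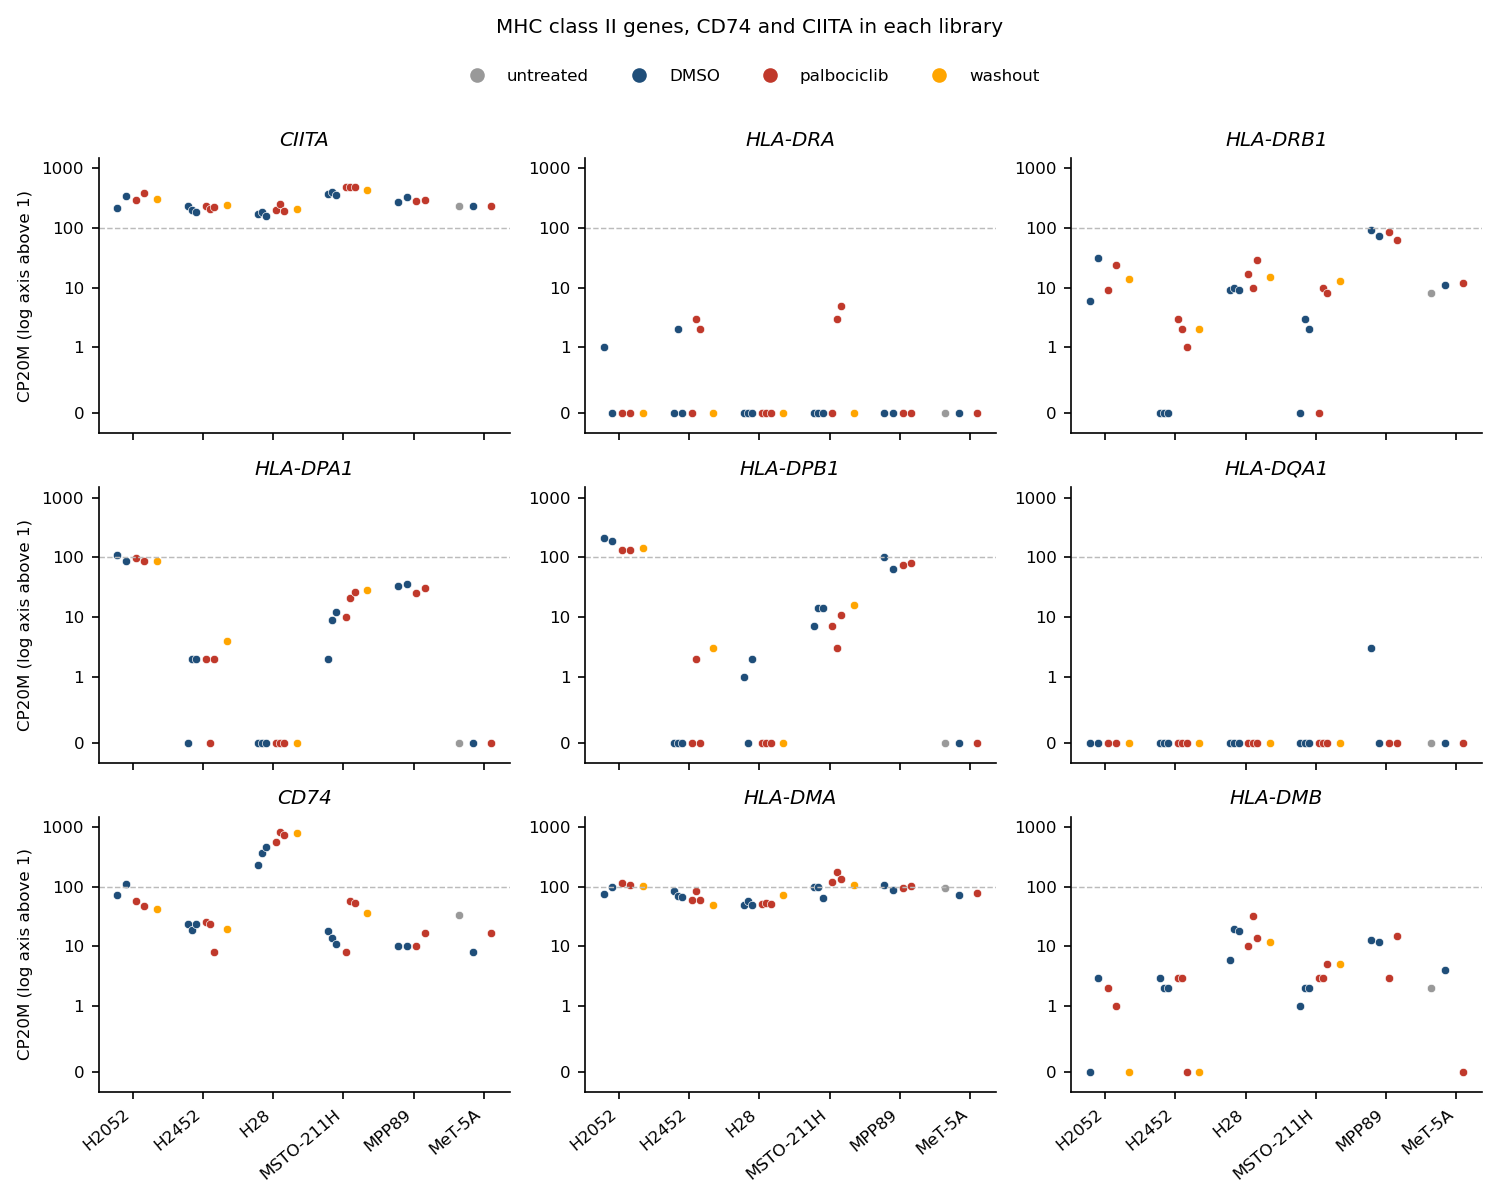
CP20M of the 9 genes in each library (points, log axis above 1), by cell line and treatment, with a dashed line at the 100 CP20M of the filter. CIITA lay between 160 and 492 CP20M in every library, while HLA-DRA never passed 5 and HLA-DPB1 ran from 0 to 209.

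CIITA, the regulator of the whole group, was read in all 33 libraries, from 160 to 492 CP20M with a median of 242. In DMSO it stood at 373, 396 and 355 CP20M in MSTO-211H, at 278 and 328 in MPP89, at 216 and 339 in H2052, at 239 in MeT-5A, at 232, 200 and 186 in H2452 and at 171, 184 and 160 in H28. The untreated MeT-5A library stood at 230. The lines formed a gradual series in which MSTO-211H was highest and H28 lowest, and no neighbouring lines in this order differed by the test, the limma fit of log2(CP20M + 10) with a call at a fold change above 1.5 and an adjusted p under 0.05. Over all 15 contrasts of lines, 5 were called for CIITA, each with MSTO-211H as the higher line or H28 as the lower. Over all tested genes, 48.8% of such contrasts were called. The call of MSTO-211H against MeT-5A rests on 1 MeT-5A library, with the spread taken from the other lines. The contrast of MSTO-211H with H28 was 1.08 on the log2 scale (SE 0.17, adjusted p 0.00013). Per kb of exon, CIITA ranged from 7.61 CP20M in H28 to 16.6 in MSTO-211H.

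Whether the level of CIITA includes reads of its neighbour DEXI was not tested. CIITA lies at chr16:10866222-10943021 on the plus strand, with 22553 exonic bases in GENCODE 44, and DEXI, a protein-coding gene on the minus strand, overlaps 2424 of them, 10.7%. Among all tested genes DEXI was also the one whose log2 level followed CIITA most closely over the 33 libraries, with a Pearson r of 0.95. DEXI stood at 243 to 968 CP20M, and the CIITA to DEXI ratio ranged from 0.489 to 0.757 with a median of 0.576. The libraries were directional, but the strand setting of the counting is not given in the sources used here, and without it reads from a gene and its antisense partner cannot be told apart. The other genes most like CIITA were TMEM156 (r = 0.93), FUT8-AS1 (0.93), TSTA3 (0.92) and BCHE (0.91), all of them highest in MSTO-211H, where BCHE stood at 1266 to 1762 CP20M against at most 472 elsewhere. These correlations describe 33 libraries that share 6 lines.

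**Figure D2:**
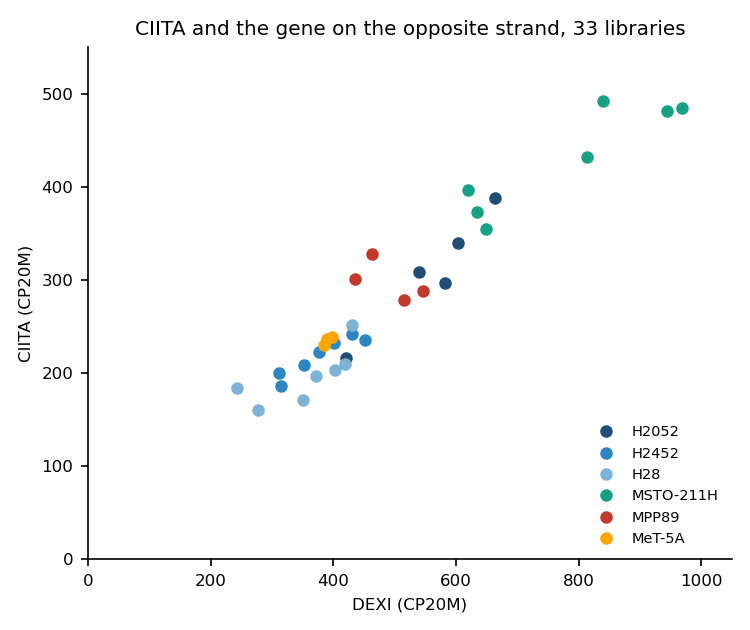
CIITA against DEXI, the gene on the opposite strand, in CP20M for the 33 libraries (points), coloured by cell line. CIITA was between 0.489 and 0.757 of DEXI in each library, in all 6 lines.

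HLA-DRA and HLA-DQA1 were at or near 0. HLA-DRA encodes the alpha chain shared by all DR molecules (chr6:32439878-32445046, plus strand). It was at 0 in 27 of the 33 libraries. The 6 libraries with reads were H2052 DMSO 1 at 1 CP20M, H2452 DMSO 2 at 2, H2452 palbociclib 2 and 3 at 3 and 2, and MSTO-211H palbociclib 2 and 3 at 3 and 5. A level of 5 CP20M stands for at most 5 reads. HLA-DQA1, an alpha chain of DQ (chr6:32628179-32647062, plus strand), had reads in 1 library only, MPP89 DMSO 1, at 3 CP20M.

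HLA-DRB1, a beta chain of DR (chr6:32577902-32589848, minus strand), was read in 28 libraries but stayed under the filter. It was highest in MPP89, at 94 and 73 CP20M in DMSO and 86 and 64 in palbociclib. H2052 followed at 6 and 31 in DMSO, and H28 at 9, 10 and 9. MeT-5A DMSO stood at 11, MSTO-211H at 0, 3 and 2, and the 3 H2452 DMSO libraries at 0. The MPP89 mean of 83.5 was at least 20.6-fold higher than H2452 as a ratio of CP20M. The limit taken for H2452 was 3 reads in its shallowest library, 4.06 CP20M. This limit covers counting error only, and losses of reads in mapping were not tested. HLA-DRA was at 0 in all 4 MPP89 libraries. Of the 50-base stretches of HLA-DRB1 transcripts, 3.26% also occur in HLA-DRB5, a near copy, and HLA-DRB5 had its highest level, 37 CP20M, in MPP89 DMSO 1 too, so reads may be split between them.

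HLA-DPA1 and HLA-DPB1, the chains of DP, were read mainly in H2052, MPP89 and MSTO-211H. They lie head to head at chr6:33064569-33080775 on the minus strand and chr6:33075990-33089696 on the plus strand, and 96 exonic bases overlap. HLA-DPB1 stood in DMSO at 209 and 187 CP20M in H2052, at 103 and 65 in MPP89 and at 7, 14 and 14 in MSTO-211H. It was at 1, 0 and 2 in H28, at 0 in each H2452 library and at 0 in MeT-5A. HLA-DPA1 followed at 109 and 87 in H2052, 33 and 36 in MPP89 and 2, 9 and 12 in MSTO-211H. In the other lines HLA-DPA1 was at 0, 2 and 2 in H2452 and at 0 in H28 and MeT-5A.

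Each step down this order, from H2052 to MPP89 and on to MSTO-211H, was called for both genes. HLA-DPB1 fell by 1.17 on the log2 scale from H2052 to MPP89 (SE 0.24, adjusted p 0.00152) and by 2.11 from MPP89 to MSTO-211H (SE 0.22, adjusted p 6.3e-06). HLA-DPA1 was higher by 1.27 in H2052 than in MPP89 (SE 0.26, adjusted p 0.00147) and by 1.38 in MPP89 than in MSTO-211H (SE 0.24, adjusted p 0.000357). On this scale, which understates changes of low genes, the fall from MSTO-211H to the next line was smaller. It was 0.96 for HLA-DPB1 against H28 (SE 0.20, adjusted p 0.000949) and 0.60 for HLA-DPA1 against H2452 (SE 0.21, adjusted p 0.0266). The 3 lowest lines did not differ from each other by the test. As a ratio of mean CP20M this fall was not smaller, from 11.7 to 1 for HLA-DPB1 and from 7.67 to 1.33 for HLA-DPA1. From H2052 to MPP89 these means went from 198 to 84 and from 98 to 34.5. The means of 1 and 1.33 lie below 3 reads. Over 20 alternatives the HLA-DPB1 fall from MSTO-211H to H28 ran from 0.27 to 2.74, beside 0.88 to 1.47 from H2052 to MPP89. With a pseudocount of 1 the steps from H2052 to MPP89 were no longer called (adjusted p 0.0652 for HLA-DPB1 and 0.0957 for HLA-DPA1). The HLA-DPA1 step from MSTO-211H to H2452 was called in 15 of 20 alternatives, with values from 0.16 to 1.81 and adjusted p up to 0.117. It was lost with median-of-ratios scaling, with a pseudocount of 50, and without H2452 DMSO 1, MSTO-211H DMSO 2 or MSTO-211H DMSO 3. With a pseudocount of 50 the fold was also too small for HLA-DPA1 from MPP89 to MSTO-211H (0.55) and for HLA-DPB1 from MSTO-211H to H28 (0.27). As ratios of CP20M, HLA-DPB1 was at least 48.7-fold higher in H2052 than in H2452. HLA-DPA1 was at least 26.2-fold higher in H2052 than in H28. These folds are again against 3 reads, for counting error only, and losses of reads in mapping were not tested. Both genes were called in 12 of 15 contrasts, and 48.8% of all contrasts over all tested genes were called. The contrasts with MeT-5A rest on 1 MeT-5A library, with the spread taken from the other lines. Over the 33 libraries their log2 levels had a Pearson r of 0.95, a description of libraries that share 6 lines. Both passed the filter only through H2052, and HLA-DPB1 through MPP89 as well, so their being tested rests on those lines.

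CD74, the invariant chain, was highest in another line. The gene (chr5:150401637-150412969, minus strand) was read in every library, and in DMSO it stood at 237, 374 and 467 CP20M in H28 against 74 and 114 in H2052. It was at 24, 19 and 24 in H2452, at 18, 14 and 11 in MSTO-211H, at 10 and 10 in MPP89 and at 8 in MeT-5A, whose untreated library had 34. H28 was above H2052 by 1.80 (SE 0.27, adjusted p 9.98e-05) and H2052 above H2452 by 1.66 (SE 0.27, adjusted p 0.000238). The lines below did not differ from their neighbours by the test. For CD74, 10 of the 15 contrasts were called, beside 48.8% of all contrasts over all tested genes. It passed the filter only through H28 and H2052 DMSO 2 and stayed at or below 59 CP20M in the other lines, so its being tested rests on the lines where it is high. Per kb of exon, CD74 in H28 was at 79.4 CP20M, against 20.6 for HLA-DMA and 7.61 for CIITA in the same DMSO libraries. These lengths join the exons of all transcripts of a gene, 22553 bases for CIITA and 4526 for CD74. Levels per kb of different genes therefore compare only roughly.

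CD74 and the chain genes it serves were not highest in the same lines. H28 had the most CD74 and no HLA-DPA1 read in any of its 7 libraries. MPP89 had 34.5 CP20M of HLA-DPA1 and 84 of HLA-DPB1 on average in DMSO, with CD74 at 10. Over all libraries the Pearson r of CD74 with HLA-DPA1 was -0.22, with HLA-DPB1 -0.22 and with CIITA -0.42. The 5 genes most like CD74 were ITIH5 (r = 0.95), CYTH4 (0.95), ATRNL1 (0.94), SUSD4 (0.94) and LINC02188 (0.94), and all were highest in H28. ITIH5, a gene of the inter-alpha-trypsin inhibitor family, stood at 117 to 251 CP20M in H28 and at no more than 13 elsewhere.

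The HLA-DM genes split in level. HLA-DMA (chr6:32948613-32969094, minus strand) was the most even of the members beside CIITA, at 49 to 175 CP20M in every library. In DMSO it stood at 106 and 90 in MPP89, 76 and 99 in H2052, 100, 98 and 65 in MSTO-211H, 86, 71 and 69 in H2452, 73 in MeT-5A and 49, 57 and 50 in H28. No neighbouring lines differed by the test, and 3 of 15 contrasts were called, each with H28 as the lower line, beside 48.8% over all tested genes. HLA-DMB (chr6:32934629-32941028, minus strand) never passed 33 CP20M. It was highest in H28, with 6, 20 and 18 in DMSO, and in MPP89, with 13 and 12. Per kb, HLA-DMA exceeded HLA-DMB in every line, for example 20.6 against 3.18 CP20M in H28. On the opposite strand BRD2, which reached 5733 CP20M, overlaps 55 exonic bases of HLA-DMA, and a readthrough gene shares 160 bases of HLA-DMA and 438 of HLA-DMB on their own strand.

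**Figure D3:**
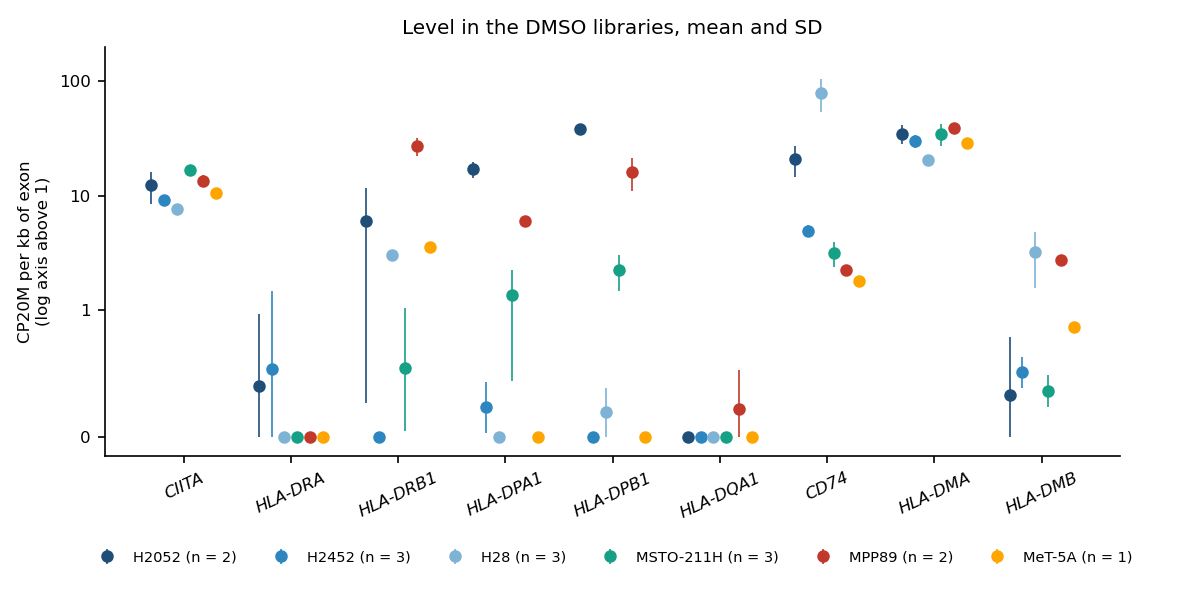
Level in the DMSO libraries as CP20M per kb of exon (mean and SD, log axis above 1), by gene and cell line. Exon lengths join all transcripts of a gene, so levels of different genes compare only roughly. CD74 was highest in H28 at 79.4, HLA-DPB1 in H2052 at 37.9 and HLA-DRB1 in MPP89 at 27.1.

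Of 13 further class II genes and pseudogenes in the matrix, none reached the filter. HLA-DRB9, HLA-DQB3, HLA-DPA2 and HLA-DQA2 were at 0 everywhere, and 10 of the 13 stayed below 10 CP20M in every library. HLA-DOA, the alpha chain of the HLA-DM inhibitor, reached 25 CP20M in MSTO-211H palbociclib 2, and its partner HLA-DOB reached 29 in MSTO-211H washout. HLA-DQB1 reached 4.

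Palbociclib was compared with DMSO within each experiment, first over the 11 pairs of the sensitive lines. By limma none of the 5 tested members was called, while 15% of all 17803 tested genes were. An unadjusted p under 0.05 was found for 9819 of these genes and for 1 of the 5 members. This was CIITA, which was higher in 11 of 11 pairs, by 0.27 on the log2 scale (SE 0.066, adjusted p 0.00399), a fold of 1.21 that is below the 1.5 of the call. With median-of-ratios scaling it was 0.46 (adjusted p 0.00018), still below that fold, and the other alternatives gave 0.24 to 0.33. Of all tested genes, 48.3% had an adjusted p under 0.05 at any fold. Averaged over these pairs, CIITA stood at 256 CP20M without and 314 with the drug. DEXI, its neighbour on the other strand, was higher in the same fit by 0.38 (SE 0.072, adjusted p 0.000827), and the part of DEXI in the value of CIITA was not tested. The other 4 had adjusted p above 0.05 as deposited. CD74 had a difference of 0.31 (SE 0.26, adjusted p 0.34), HLA-DMA of 0.21 (SE 0.13, adjusted p 0.183), HLA-DPA1 of 0.18 (SE 0.11, adjusted p 0.203) and HLA-DPB1 of -0.21 (SE 0.11, adjusted p 0.123). These values moved with the setting and none was called in any of the 22 alternatives. CD74 ran from 0.052 without H28 to 0.54 without H2052, and HLA-DMA from 0.043 without MSTO-211H to 0.39 with median-of-ratios scaling, where its adjusted p was 0.0247. HLA-DPA1 ran from -0.017 without MSTO-211H to 0.36 with a pseudocount of 1, and HLA-DPB1 from -0.40 with a pseudocount of 1 to -0.11 with one of 50. The median over the 5 was 0.21, beside -0.11 over all tested genes. Median-of-ratios scaling moved the latter to 0.058, and of the genes called over all, 37.3% were higher as deposited and 65.7% with that scaling.

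The 4 members under the filter had small changes in reads. HLA-DRB1 was higher with palbociclib in 8 of 11 pairs, lower in 1 and equal in 2, on average at 6.36 CP20M without and 10.3 with the drug. Without a filter on low values its difference was 0.32 (SE 0.11, adjusted p 0.0523). HLA-DMB was higher in 7 pairs and lower in 3. HLA-DRA was higher in 4, lower in 1 and equal, at 0, in 6. HLA-DQA1 was at 0 in all of these libraries.

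The fits line by line called 1 member in each of H28 and MSTO-211H. In H28, which had the highest CD74 in DMSO, it rose in 3 of 3 pairs, from 237, 374 and 467 CP20M in DMSO to 565, 849 and 741 in palbociclib. The difference was 1.01 (SE 0.15, adjusted p 0.0306), a fold of 2.02. CD74 was the single member called in H28, where 13.2% of all genes were. The call rests on 3 pairs and on the pairing. Leaving out any 1 pair gave differences of 0.91 to 1.19 with adjusted p from 0.0756 to 0.218, and without the experiment block the adjusted p was 0.0691. CIITA in H28 went from 171, 184 and 160 CP20M to 203, 251 and 197, by 0.32 (SE 0.12, adjusted p 0.122). HLA-DRB1 went from 9, 10 and 9 to 17, 10 and 29. The summed level of the 10 leukocyte markers also moved in H28, at 57 to 69 CP20M in DMSO and 96 to 204 in palbociclib, mostly from ITGAX at 43 to 50 and 76 to 182. Of the other markers, SPI1 was higher in 3 of 3 pairs, at 3, 7 and 2 CP20M in DMSO and 11, 8 and 4 in palbociclib, and so was LYZ, at 0, 0 and 1 and then 4, 8 and 3. PTPRC was at 0 or 1 in each H28 library, CD3E and MS4A1 were at 0, and CD14 went from 13, 4 and 7 to 3, 0 and 3. The part of these markers in the CD74 value was not tested.

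In MSTO-211H the called member was HLA-DPA1, with 13.8% of all genes called. It rose in 3 of 3 pairs, from 2 to 10, from 9 to 21 and from 12 to 26 CP20M, a difference of 0.72 (SE 0.087, adjusted p 0.0349) on the log2(CP20M + 10) scale, which understates changes of low genes. The groups overlap, as the lowest palbociclib value lies below the highest DMSO value. It stayed at or below 28 CP20M in every MSTO-211H library and was tested only because H2052 passed the filter, so with the filter within the fit it was not tested. The call held in 2 of 9 alternatives, median-of-ratios scaling and no trend. It was lost without any 1 pair (adjusted p 0.0867 to 0.242), without the block (adjusted p 0.156), with no filter (adjusted p 0.0897), with a pseudocount of 1 (adjusted p 0.0513) and with a pseudocount of 50, where the difference was 0.26. Its partner HLA-DPB1 stood at 7, 14 and 14 CP20M in DMSO and 7, 3 and 11 in palbociclib, a difference of -0.36 (SE 0.21, adjusted p 0.264). HLA-DMA was higher in 3 of 3 pairs, from 100, 98 and 65 to 121, 175 and 136 CP20M, by 0.66 (SE 0.21, adjusted p 0.101). CD74 went from 18 to 8 in experiment 1, from 14 to 59 in experiment 2 and from 11 to 53 in experiment 3, a difference of 0.82 with an SE of 0.53 (adjusted p 0.307). CIITA went from 373, 396 and 355 to 485, 492 and 481 CP20M, by 0.37 (SE 0.10, adjusted p 0.0814), and was not called.

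By limma no member was called in H2052 or H2452, where 17.7% and 16.8% of all genes were. An unadjusted p under 0.05 was found for 1 member in H2052, HLA-DPB1, and for 8221 of all 17803 genes. In H2452 it was found for 0 members and for 8690 genes. In H2052 the differences of CD74 and HLA-DPB1 were below 0. CD74 went from 74 and 114 CP20M to 57 and 47, by -0.72 (SE 0.27, adjusted p 0.132). HLA-DPB1 went from 209 and 187 to 133 and 132, by -0.54 (SE 0.16, adjusted p 0.0894). HLA-DPA1 stood at 109 and 87 in DMSO and 97 and 88 with the drug. The summed level of the 10 leukocyte markers was also lower in H2052 with palbociclib. It was at 218 to 373 CP20M in DMSO and 95 to 103 with the drug. ITGAX made up most of this, at 194 and 350 and then 71 and 73, while PTPRC was at 3 or below, CD3E was at 0, and CD14 was at 9 and 10 and then 16 and 14. The part of these markers in the CD74 and HLA-DPB1 values was not tested. CIITA was at 216 and 339 in DMSO and at 296 and 388 with palbociclib. In H2452 CD74 was at 26, 24 and 8 with palbociclib, HLA-DMA at 60, 86 and 60, and CIITA at 235, 208 and 222. All 3 HLA-DRB1 values of H2452 were 0 in DMSO and 3, 2 and 1 with palbociclib, which is within the limit of a count of 0.

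Whether the response differed among the 4 sensitive lines was tested with an F test over the 11 pairs. HLA-DPA1 passed (F = 8.05, adjusted p 0.0175), as did 37.1% of all genes, but it was tested only through H2052, was at 0 in all 7 H28 libraries, and stayed at or below 4 CP20M in H2452 and 28 in MSTO-211H. It passed in 17 of 22 alternatives. It did not without MSTO-211H (F = 0.075, adjusted p 0.949), without the third MSTO-211H experiment (adjusted p 0.0513), without the block (adjusted p 0.177), with a pseudocount of 1 (adjusted p 0.258) or with no filter (adjusted p 0.0635). CD74 (F = 3.96, adjusted p 0.0812), HLA-DMA (3.81, 0.0877), HLA-DPB1 (2.33, 0.201) and CIITA (1.18, 0.441) were not called. CD74 passed in 3 of 22 alternatives, among them without MSTO-211H (adjusted p 0.0197) and without the first MSTO-211H experiment (adjusted p 0.00423). HLA-DPB1 and HLA-DMA each passed in 1 (adjusted p 0.0186 and 0.038), and CIITA in 0.

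In the resistant lines limma called no member and no gene, 0% of 17803 genes in MPP89, where 918 genes had an unadjusted p under 0.05, and 0% over the 3 resistant pairs, where 1258 did. CIITA stood in MPP89 at 278 and 328 CP20M in DMSO and at 288 and 301 in palbociclib, and in MeT-5A at 239 and 236. HLA-DPB1 was at 103 and 65 and then 75 and 82 in MPP89. CD74 was at 10 and 10 and then 10 and 17 in MPP89, and at 8 and 17 in MeT-5A. Over these 3 pairs CIITA differed by -0.029 (SE 0.075) and CD74 by 0.34 (SE 0.14, adjusted p 0.689), the 1 member with an unadjusted p under 0.05 there. In MPP89 alone 0 members had one. The difference in response between sensitive and resistant lines was called by limma for no member, with 6.75% of all genes called. It was 0.30 for CIITA (SE 0.13, adjusted p 0.146), or 0.51 with median-of-ratios scaling (adjusted p 0.035, under the fold). CIITA was the 1 member with an unadjusted p under 0.05 as deposited, beside 4760 of all 17803 genes. The class difference was 0.34 for HLA-DPA1 (SE 0.23, adjusted p 0.376), 0.15 for HLA-DMA, -0.025 for CD74 and -0.17 for HLA-DPB1.

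**Figure D4:**
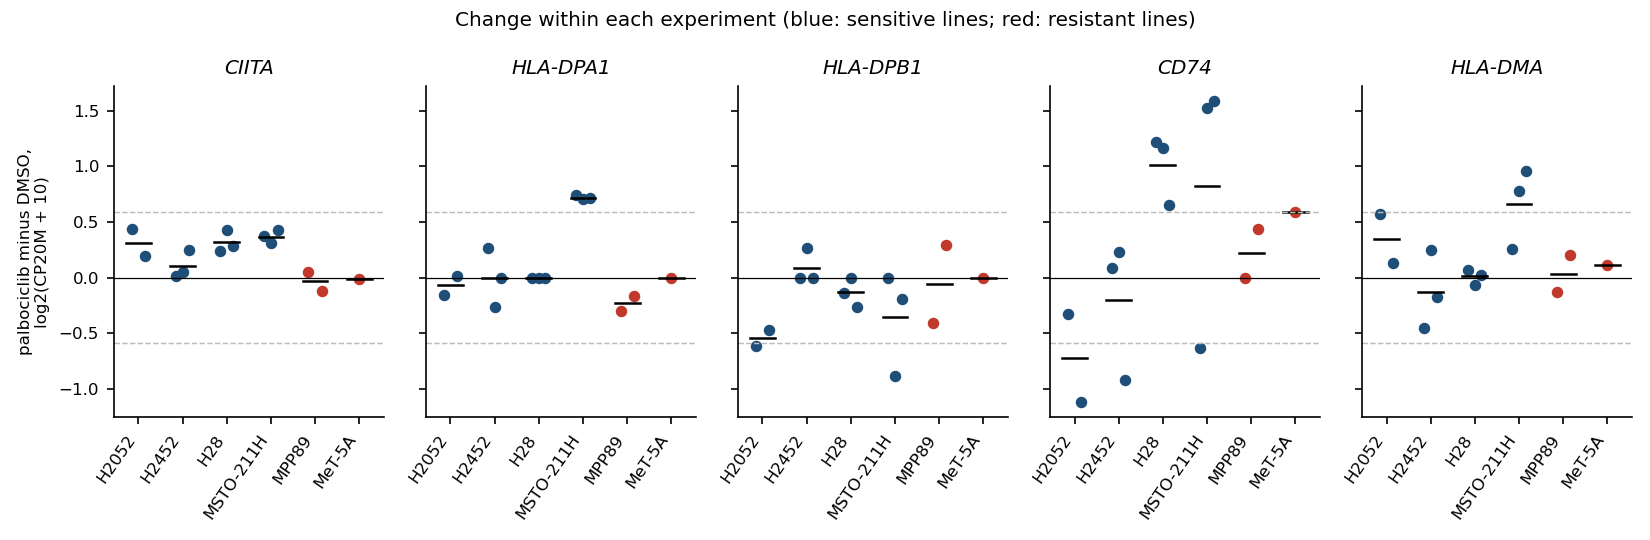
Palbociclib minus DMSO within each experiment, on the log2(CP20M + 10) scale, for the 5 tested members (points, 1 per pair, with the mean of each line as a bar and dashed lines at a fold of 1.5). CIITA lay above 0 in all 11 pairs of sensitive lines, while CD74 ranged from -0.72 on average in H2052 to 1.01 in H28.

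The washout libraries were compared with the DMSO and palbociclib libraries of the same experiment to see whether levels returned within 48 h. CD74 was at 818 CP20M in H28 washout, against 741 in palbociclib and 467 in DMSO of the same experiment. In MSTO-211H washout it was at 36, against 53 and 11. In H2052 washout it was at 42, against 47 and 114, and in H2452 washout at 20, against 8 and 24. HLA-DPA1 was at 28 in MSTO-211H washout, against 26 and 12. CIITA was at 308 after washout, 388 with palbociclib and 339 in DMSO in H2052, and at 242, 222 and 186 in H2452. In the same order it was at 209, 197 and 160 in H28, and at 432, 481 and 355 in MSTO-211H. HLA-DPB1 in H2052 was at 145 after washout, 132 with palbociclib and 187 in DMSO. Over the 12 libraries of these 4 experiments limma called no member between washout and palbociclib, where 1.4% of all genes were called. It called no member between washout and DMSO, where 5.76% were. In either comparison 0 members had an unadjusted p under 0.05, while 2322 and 5265 of 17803 genes had one. For CIITA the differences were -0.069 (SE 0.12, adjusted p 0.885) and 0.22 (SE 0.12, adjusted p 0.262). With 1 washout library per line, the lines serve as the replicates.

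Other genes of the pathway were followed over the same 11 pairs of sensitive lines, where 5.58% of all tested genes were called higher and 9.37% lower, or 9.88% and 5.17% with median-of-ratios scaling. The 7 genes of the complex that CIITA binds (RFX5, RFXAP, RFXANK, NFYA, NFYB, NFYC and CREB1) were all tested, with a median of -0.39 beside -0.11 over all genes. Among them 1 was called, CREB1, a factor of the cyclic AMP response element, which fell by 0.61 (SE 0.066, adjusted p 1.32e-05) in 11 of 11 pairs. RFX5, the DNA-binding subunit of RFX, had a difference of -0.22 (SE 0.13, adjusted p 0.178). Of 8 regulators of CIITA or of its chromatin, 2 were called. EZH2, a methyltransferase of histone H3 lysine 27, fell by 1.97 (SE 0.12, adjusted p 2.81e-07), with averages of 875 CP20M in DMSO and 218 in palbociclib, and HDAC2, a histone deacetylase, fell by 0.66 (SE 0.063, adjusted p 5.15e-06). NLRC5, the counterpart of CIITA for class I genes, differed by 0.048 (SE 0.14, adjusted p 0.801).

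Of 11 genes of the interferon gamma axis, 3 rose and none fell by the call. IFNGR1, the ligand-binding chain of the receptor, rose by 0.78 (SE 0.080, adjusted p 8.6e-06), and GBP1, an interferon-induced GTPase, by 0.69 (SE 0.14, adjusted p 0.00134). IFNGR2, the other chain of the receptor and named after its values were seen, was lower in 11 of 11 pairs with a difference of -0.45 (SE 0.12, adjusted p 0.00586), under the fold of the call. IRF1, a factor that switches on CIITA, had a difference of 0.15 (SE 0.14, adjusted p 0.366) and was higher in 4 of 11 pairs. Of 8 genes that process peptides or CD74 in the endosome, 3 rose and none fell. They were the cathepsins CTSB, by 0.87 (SE 0.14, adjusted p 0.000211), and CTSL, by 0.74 (SE 0.13, adjusted p 0.000551), and the asparaginyl endopeptidase LGMN, by 0.62 (SE 0.14, adjusted p 0.00304). The median of these 8 was 0.40.

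Of 5 ligands and partners of CD74, 1 was called, CXCR4, a chemokine receptor that can join CD74 as a receptor of MIF. It rose by 1.13 (SE 0.24, adjusted p 0.002), with averages of 41 and 145 CP20M. Over 22 alternatives the CXCR4 difference ran from 0.71 to 1.90, called in all 22. Of 2 ubiquitin ligases that remove class II molecules from the surface, MARCH1 fell by 0.67 (SE 0.14, adjusted p 0.00131) and MARCH8 was not called. Of 4 costimulatory genes, CD80 and CD86 stayed at or below 20 CP20M and were not tested, CD40 was not called, and ICOSLG rose by 0.59 (SE 0.17, adjusted p 0.0131), just past the fold of 1.5. Among the 9 mesothelial markers CALB2 rose by 1.69 (SE 0.41, adjusted p 0.00409) and the others were not called. Neither of the 2 tested leukocyte markers was called. Several of these calls were near the fold. Of 22 alternatives, ICOSLG was called in 15 (adjusted p up to 0.0886), LGMN in 17, CREB1 in 18, MARCH1 in 19, and HDAC2 and GBP1 in 21 each. With median-of-ratios scaling CREB1 (-0.41), HDAC2 (-0.47) and MARCH1 (-0.51) did not reach the fold, and with a pseudocount of 50 CREB1, MARCH1, ICOSLG and GBP1 (0.54) did not. CREB1 and MARCH1 were also lost without H28 pair 3, and CREB1 without H28. LGMN was lost without H2452 (0.38), without any 1 of the 3 H2452 pairs and without MSTO-211H pair 1. ICOSLG was lost without H2452 (0.42) and without any of 5 single pairs, which were H2052 pair 2, H2452 pairs 1 and 3, H28 pair 1 and MSTO-211H pair 3.

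**Figure D5:**
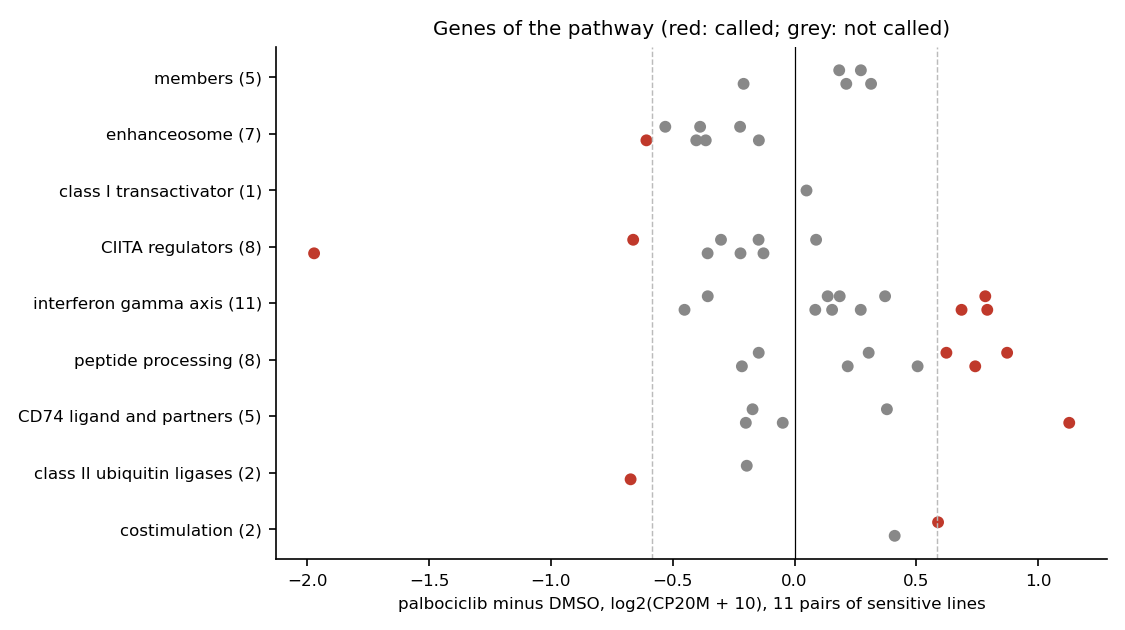
Palbociclib minus DMSO over the 11 pairs of sensitive lines, on the log2(CP20M + 10) scale, for each tested gene of the lists (points, red where called, dashed lines at a fold of 1.5, number of genes in parentheses). The 5 tested members lie between -0.21 and 0.31, while CXCR4 at 1.13 and EZH2 at -1.97 lie outside the lines.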

How the data were processed

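Total RNA of the 33 cultures was made into directional libraries (NEBNext Ultra II Directional) and sequenced as paired ends. The authors trimmed reads with Trimmomatic 0.36, mapped them with STAR 2.5.3 to GRCh38 (Ensembl release 90), counted them per gene with HTSeq 0.9.1 and called genes with DESeq2. The deposited values are a score, CP20M, scaled to 20000000 counted reads per library and rounded up to whole numbers, so DESeq2 was not used here. The strand setting of the counting is not given in the sources used here.

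The fits used limma 3.58.1 (trend) in R 4.3.3 on log2(CP20M + 10), over 17803 genes of at least 100 CP20M in at least 1 library, with the experiment as a block. A gene was called at a fold above 1.5 either way and a Benjamini-Hochberg adjusted p under 0.05 over all tested genes. Every fitted fold and difference is on this scale, while a fold given as "at least" is a ratio of mean CP20M to 3 reads. No other tool was run. Fits covered the 11 sensitive pairs, each line with at least 2 pairs, the 3 resistant pairs, the difference between these classes, the F test among the 4 sensitive lines, washout over 12 libraries with the line as block, and the 14 DMSO libraries with 15 contrasts and no block. In the contrasts with MeT-5A, which had 1 DMSO library, the spread comes from the other lines. The methods pair treated and control samples by experiment. The pairing was checked across genes: same-numbered DMSO and palbociclib libraries departed together from their group means, with r from 0.18 to 0.78 over 13 pairs. No more than 4.33% of tested values were equal between replicates, so none was counted as a duplicate. The fits of the 11 pairs, H28, H2052, washout and the DMSO libraries were tested on simulated data, and the F test was not. The simulation planted large changes in genes of high level, without an experiment effect. Small changes and low genes, such as most members, were not covered by it.

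Named genes are the 9 members, up to 4 called genes of each list with the largest fold, defining genes of the pathway, and the 5 genes with the highest Pearson r to CD74 and to CIITA. The values of 2 list genes are not reported here. DEXI's tests and the levels of single leukocyte markers were added after the values were seen. The members, lists and motifs were chosen with earlier results of these data known. Exonic lengths and overlaps come from GENCODE 44 and promoters from RefSeq. Alternatives were another pseudocount (1 or 50), other filters, median-of-ratios scaling, no trend, no block, and leaving out pairs, lines or libraries.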

Additional observations from a re-analysis of the deposited data

Results flagged for a closer look

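HLA-DPA1 had an adjusted p of 0.0175 in the F test of limma for a difference in response among the 4 sensitive lines. The gene was tested only through H2052, and the call was lost with no filter (adjusted p 0.0635), with a pseudocount of 1 (0.258), without the block (0.177), without MSTO-211H (0.949) and without MSTO-211H pair 3 (0.0513). All 3 pairs of MSTO-211H were higher with palbociclib, while in H28 every library was at 0 and in H2052 and H2452 the pairs went both ways or not at all.

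For CD74, all 3 pairs of H28 were higher with palbociclib, with a mean difference of 1.01, and both pairs of H2052 were lower, with a mean of -0.72. For HLA-DRB1, all 3 pairs of H2452 were higher, with a mean of 0.26, at levels of 0 to 3 CP20M, and both pairs of MPP89 were lower, with a mean of -0.14. These opposite directions between 2 lines were not tested as such, and for CD74 the F test over all 4 sensitive lines gave an adjusted p of 0.0812.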

How the results depend on the processing

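With the experiment left out of the fit (no replicate block), the counts of members called in H28, in MSTO-211H and in the F test among sensitive lines fell from 1 to 0, and no other count changed. The count in H2052 was 1 (CD74, adjusted p 0.0415) with the filter within the fit. In MSTO-211H it was 0 with a pseudocount of 1 or 50, with no filter and with the filter within the fit. Without replicate 1, 2 or 3 it ranged from 0 to 0 in H28 and in MSTO-211H. In the F test it was 0 with a pseudocount of 1 or no filter, 3 with a pseudocount of 50 (CD74, HLA-DPA1 and HLA-DPB1), and 0 to 3 when single pairs were left out.

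Directions turned only among values that were not called. With median-of-ratios scaling these were HLA-DPA1 in H2052 (0.22), HLA-DMA in H2452 (0.047), CD74 in the class difference (0.16) and in washout against palbociclib (-0.034), HLA-DPB1 in washout against DMSO (0.022) and CIITA in MPP89 against H2052 (-0.0075). Without MSTO-211H, HLA-DPA1 over the sensitive lines was -0.017, IRF1 -0.0013, HLA-DMA in the class difference -0.020, and in washout HLA-DMA was 0.047 against palbociclib and CD74 -0.21 against DMSO. The class difference of CD74 was 0.14 with a pseudocount of 50, 0.097 without the MeT-5A pair, 0.21 without H2052, 0.17 without H2452 and -0.20 to 0.12 without single pairs. In washout against palbociclib, HLA-DMA was 0.018 and CD74 -0.15 without H2452, and CIITA 0.016 without H2052. In washout against DMSO, HLA-DPB1 was 0.058 with a pseudocount of 1, 0.077 without H2052 and 0.049 without H28, and CD74 -0.10 without H28.

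Leaving out single pairs gave -0.32 to 0.035 for HLA-DMA and -0.42 to 0.16 for CD74 in H2452, -0.021 to 0.048 for HLA-DMA in H28, and, over the resistant pairs, -0.21 to 0.15 for HLA-DPB1, -0.0066 to 0.16 for HLA-DMA and -0.069 to 0.016 for CIITA. Leaving out single DMSO libraries gave -0.16 to 0.47 for CIITA and -0.017 to 0.32 for HLA-DMA in MPP89 against H2052, -0.14 to 0.49 for CIITA in H2052 against MeT-5A, -0.17 to 0.18 for HLA-DMA in H2052 against MSTO-211H (-0.076 with the replicate block) and -0.053 to 0.087 for HLA-DMA in H2452 against MeT-5A. The cause of these shifts was not tested.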
